A study of Mus musculus with 48 samples.

Results

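Myeloid cells read their surroundings partly through C-type lectin receptors, and 10 genes for such receptors were followed here across the myeloid cells of mouse glioma: Clec4d, Clec4e, Clec4n, Clec4a1, Clec4a2, Clec4a3, Clec12a, Cd72, Mrc1 and Clec10a. They were picked by symbol, with earlier results of these data known. All 10 were found among the 20300 genes of the larger table and the 14363 genes of the smaller one. Other C-type lectins such as Clec7a were not analysed here as members. Clec4d, Clec4e and Clec4n activate cells through the FcRγ adaptor, Syk and Card9 when they meet microbial sugars, glycolipids or material from dying cells. Clec4a2, Clec12a and Cd72 carry an inhibitory motif in the cytoplasmic tail that recruits phosphatases, and Clec4a1 and Clec4a3 are close relatives of Clec4a2. Mrc1, the mannose receptor, and Clec10a, which binds galactose-type sugars, take up glycoproteins.

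The libraries came from brains of young male C57BL/6 mice that carried GL261, a mouse glioma line, with a control hairpin (shNC) or a hairpin against Selp (shSELP) in the tumor cells. In the larger experiment, labelled day 16, CD11b+ cells, CD11b-negative CD45+ cells and cancer cells were mixed in equal parts, with 2 libraries a group (the mix). In the smaller one, labelled day 21, CD11b+ cells were profiled with 1 library a group. The description of some entries of its shSELP library names the control, against their title and genotype, which were followed. Labels and methods differ on the day of both experiments. Brains were pooled within a group and the labels do not say that libraries came from separate animals, so the p-values given here measure only the spread between these libraries, which may be technical. No animal without a tumor was profiled, and the hairpin was in the tumor cells, not in the myeloid cells.

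Values in the mix are given in the order shNC 1, shNC 2, shSELP 1 and shSELP 2. The cells kept numbered 2183, 2179, 2190 and 2174, with 22874762, 22546742, 17323095 and 25512125 unique molecular identifiers (UMIs). The median cell held 9547, 8051, 6164 and 9879.5 UMIs. The CD11b+ libraries held 2731 cells and 12532788 UMIs (shNC, median 4209) and 2804 cells and 11406051 UMIs (shSELP, median 3737). Libraries of the mix had 5 cell barcodes in common and those of the CD11b+ experiment 3. The library shSELP 1 stood apart: it was the shallowest, 14.7% of its cells were macrophage-like against 21.8 to 30.7% in the other 3, and 12.5% were microglia-like against at most 5.0%. Results between groups are therefore given with and without it where it decides a call of a member. A comparison of groups without 1 library leaves 1 library in a group. Its spread, and any call it gives, then rests on the other group alone.

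Selp, the gene targeted in the tumor cells, was too rare to check the labels. The tumor-like cells of the mix held 1, 1, 0 and 1 Selp UMIs of 4823908, 3526018, 1011792 and 1025212, which allows up to 1.16, 1.58, 3.65 and 5.43 CPM (the count scaled to the summed UMIs of the class) at the 95% Poisson limit, counting error only. Endothelial-like cells held 8, 12, 15 and 7 Selp UMIs, or 60.22, 57.75, 9.06 and 14.15 CPM, lower in both shSELP libraries. Macrophage-like cells held 1, 1, 0 and 2, and microglia-like cells 0 in every library of the mix. The CD11b+ macrophage-like cells held 0 in both libraries.

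Cells were grouped into clusters without using any C-type lectin gene, and each class is named from markers outside the family that its clusters resemble. A cluster within a class is called by 2 of its leading genes outside the 10 members. UMIs of a class were summed per library and scaled to CPM of that sum. The mix held 670, 474, 321 and 560 macrophage-like cells, 271, 313, 196 and 261 monocyte-like cells, 77, 109, 273 and 108 microglia-like cells, 122, 173, 115 and 177 dendritic-cell-like cells, and 7, 11, 26 and 18 neutrophil-like cells. A small border-macrophage-like cluster with Cd163, Lyve1 and Folr2 held 14, 14, 47 and 17 cells. Clusters that could not be named, most of them shallow Cst7/Cxcl13 cells with 60, 73, 39 and 118 cells, made up 2.75, 3.58, 3.15 and 5.57% of the libraries.

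Each of the 10 receptors had its own place among the myeloid classes, and levels are compared between classes for 1 gene at a time, as mean ± SD over the 4 libraries of the mix. Neighbours in an order are said to overlap where the ranges of their 4 libraries do. The activating receptors were highest in neutrophil-like, monocyte-like and macrophage-like cells and low in microglia-like cells. Clec4e, also called Mincle, stood at 1959.3 ± 749.8 CPM in neutrophil-like, 886.7 ± 164.4 in monocyte-like and 222.3 ± 25.96 in macrophage-like cells, with the first pair overlapping and the second not. Its level in border-macrophage-like cells, 123.7 ± 103.5, overlapped the macrophage-like range, and dendritic-cell-like cells (12.87 ± 10.09) and microglia-like cells (11.63 ± 6.86) overlapped each other. Clec4d, which forms pairs with Clec4e at the cell surface, followed a like order: 852.8 ± 355.9 CPM in neutrophil-like, 339.7 ± 69.11 in monocyte-like, 238.8 ± 100.2 in macrophage-like, 75.01 ± 14.27 in border-macrophage-like, 16.45 ± 3.26 in microglia-like and 7.2 ± 2.79 in dendritic-cell-like cells. Of these steps only the one from monocyte-like to macrophage-like cells overlapped. Clec4n, or Dectin-2, differed from both in that macrophage-like cells (391.6 ± 57.82 CPM) overlapped neutrophil-like (596.2 ± 470.5) as well as monocyte-like cells (325.2 ± 25.92). Below them came border-macrophage-like (148.4 ± 60.82) and dendritic-cell-like cells (87.85 ± 35.65), which overlapped, and then microglia-like cells (21.9 ± 9.76).

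**Figure D1:**
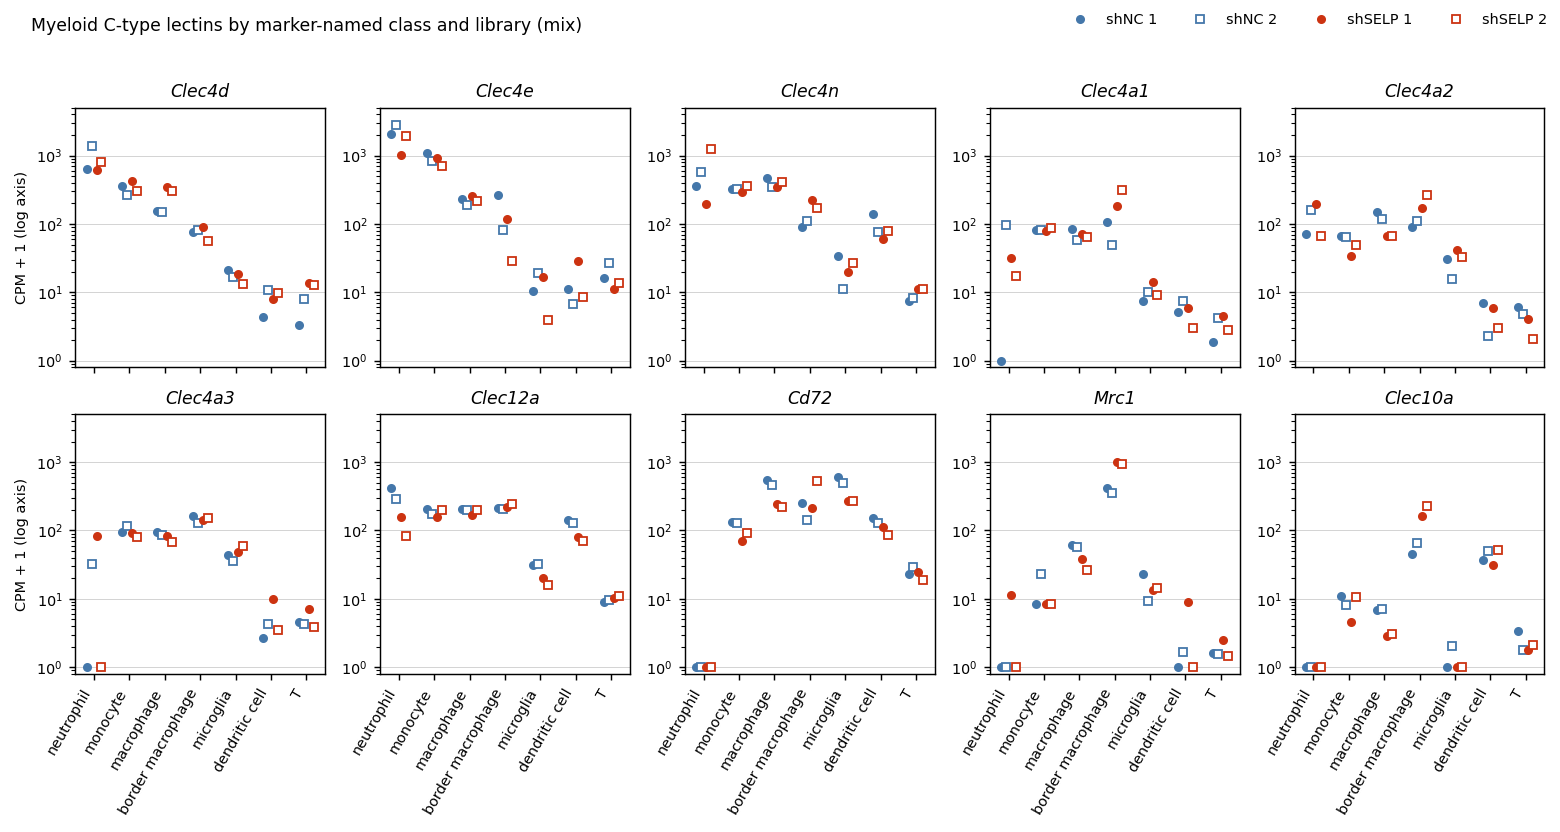
Level of each of the 10 receptors (y axis, CPM of summed UMIs plus 1, log scale) in 6 myeloid classes and T-like cells of the mix (x axis), with a point for each library, blue for shNC and red for shSELP. Cd72 stands at 0 in neutrophil-like cells and at a mean of 406.0 CPM in microglia-like cells, where Clec4e has a mean of 11.63 CPM.

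The inhibitory receptor Cd72, first known from B cells, had nearly the reverse order of Clec4e. It stood at 406.0 ± 166.0 CPM in microglia-like, 368.4 ± 163.5 in macrophage-like and 283.4 ± 166.8 in border-macrophage-like cells, then at 118.9 ± 27.06 in dendritic-cell-like and 104.1 ± 29.94 in monocyte-like cells, with each overlapping the next, though macrophage-like and dendritic-cell-like cells did not. In B- or plasma-like cells it was 91.08 ± 26.43. No Cd72 UMI was found among 202960 UMIs of neutrophil-like cells over the 4 libraries, and against a floor of 3 counts the pooled level was at least 25.4-fold lower than in macrophage-like cells. Clec12a, a receptor for uric acid crystals, lay close together in neutrophil-like (237.0 ± 150.4 CPM), border-macrophage-like (220.3 ± 17.35), macrophage-like (193.0 ± 15.92) and monocyte-like cells (181.9 ± 23.09), where only the step from border-macrophage-like to macrophage-like cells did not overlap. It was lower in dendritic-cell-like cells (104.3 ± 35.21), which overlapped neutrophil-like cells but not the other 3, and lower than in all of these without overlap in microglia-like cells (23.94 ± 8.13).

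The 3 Clec4a genes shared a floor in dendritic-cell-like cells and differed in microglia-like cells. They belong to 1 subfamily on chromosome 6, and whether reads of 1 were counted for another was not tested, so how UMIs divide among them is uncertain. Clec4a1 was at 162.7 ± 115.6 CPM in border-macrophage-like, 81.31 ± 3.29 in monocyte-like and 68.89 ± 10.6 in macrophage-like cells, each overlapping the next, and at 9.25 ± 2.93 in microglia-like cells, which did not overlap macrophage-like cells. Clec4a2 went from 159.6 ± 78.76 in border-macrophage-like over 123.0 ± 64.6 in neutrophil-like, 98.02 ± 40.37 in macrophage-like and 52.28 ± 15.32 in monocyte-like to 28.99 ± 10.48 CPM in microglia-like cells, with every neighbouring pair overlapping, while dendritic-cell-like cells (3.56 CPM) stood below without overlap. Clec4a3 kept the highest microglia-like level relative to its own macrophage-like level of the 3, at 46.08 ± 9.98 against 82.11 ± 11.16 CPM, without overlap. Its monocyte-like level (95.64 ± 14.37) overlapped the macrophage-like one, and its border-macrophage-like level (147.1 ± 15.7) stood above both.

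Among the endocytic receptors, Mrc1 was highest in the border-macrophage-like cluster, at 679.0 ± 343.8 CPM against 45.31 ± 16.46 in macrophage-like cells, without overlap. Microglia-like (14.26 ± 5.86) and monocyte-like cells (11 ± 7.33) lay below and overlapped each other. Clec10a was highest in border-macrophage-like (124.6 ± 86.7), B- or plasma-like (55.99 ± 28.7) and dendritic-cell-like cells (41.62 ± 9.94), which overlapped, and reached 3.97 ± 2.35 CPM in macrophage-like cells. In T-like cells of the same libraries, for comparison, the levels were 22.41, 28.02, 23.87 and 17.68 CPM for Cd72, 15.04, 26.12, 10.01 and 12.82 for Clec4e, and 2.36, 7.07, 12.7 and 11.71 for Clec4d.

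The question whether receptors differ between cell classes of the same tumors was tested with edgeR's quasi-likelihood test on the summed counts, each class against macrophage-like cells with library as a block, and p-values were adjusted by Benjamini-Hochberg over 9108 genes. The classes were defined in the same libraries, though without these genes. Monocyte-like cells differed in 6 of 10 members (26.2% of all genes tested were called), and the members' median log2 fold change was 0.06 against -0.03 over all genes. Clec4e was higher by 1.98 (standard error, SE, 0.22, adjusted p 5.43e-08) and Cd72 lower, at -1.75 (SE 0.14, adjusted p 6.87e-10). Mrc1 was lower, at -1.96 (SE 0.27, adjusted p 2.37e-06), and so was Clec4a2, at -0.85 (SE 0.20, adjusted p 0.00203), although Clec4a2 lost the call with a per-cell gate by markers (-0.60, adjusted p 0.0639). Clec4d was higher by 0.56 (SE 0.18, adjusted p 0.0236), a call that was lost without shNC 1 (0.33), without shNC 2 (0.49), in DESeq2 (0.40) and after thinning every cell to 2000 UMIs (0.28), with adjusted p from 0.000295 to 0.328 over its alternatives. Clec10a was higher by 0.99 (SE 0.31, adjusted p 0.0209), lost without shSELP 2 (0.58, adjusted p 0.227) and in DESeq2 (0.88, adjusted p 0.0866), with a range over alternatives from 0.00168 to 0.227. Clec4n (-0.26), Clec12a (-0.09), Clec4a1 (0.25) and Clec4a3 (0.22) were not called.

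Microglia-like cells carried less of 9 of the 10 receptors than macrophage-like cells (42.9% of all genes tested were called in this comparison), with a median log2 fold change of -2.98 against 0.00 over all genes. Of the activating receptors, Clec4n stood at -4.30 (SE 0.26, adjusted p 5.1e-14), Clec4e at -4.26 (SE 0.30, adjusted p 1.21e-12) and Clec4d at -3.95 (SE 0.25, adjusted p 1.32e-13). Of the others, Clec12a was at -3.11 (adjusted p 2.47e-14), Clec4a1 at -2.85 (adjusted p 2.1e-13), Mrc1 at -1.77 (adjusted p 4.6e-06), Clec4a2 at -1.69 (adjusted p 3.7e-07) and Clec4a3 at -0.90 (adjusted p 8.48e-05). Clec10a was called lower too (adjusted p 0.000341), on 2 UMIs in microglia-like cells of the 4 libraries, 0.274 against 4.06 CPM pooled, a ratio of 0.0675 (0.00808 to 0.249, counting error only). Cd72 was the exception among the 10, at 0.09 (adjusted p 0.639). With the per-cell gate its value turned to -0.49 (adjusted p 0.00277), with a range of adjusted p over its alternatives from 0.00277 to 0.988.

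Neutrophil-like cells differed from macrophage-like cells in 4 of 10 members (26.1% of all genes tested), with a median of -0.84 against -0.85 over all genes, and with Clec4e higher by 2.60 (SE 0.26, adjusted p 7.87e-09) and Clec4d by 1.36 (SE 0.26, adjusted p 0.000256). Cd72, at 0 in neutrophil-like cells, was called lower (adjusted p 4.9e-09). Clec4a1 was called lower at -1.34 (SE 0.50, adjusted p 0.0491) but kept the call in 1 of 10 alternatives, with adjusted p between 0.0173 and 0.686. The comparison had no minimum of cells per library and used shNC 1 with its 7 neutrophil-like cells. Dendritic-cell-like cells differed in 10 of 10 members (51.9% of all genes tested), with a median of -4.24 against 0.00 over all genes. Clec10a was higher there by 3.32 (SE 0.25, adjusted p 9.32e-12), and the other 9 were lower, from Clec4d at -5.05 (adjusted p 7.98e-15) and Clec4a2 at -4.98 (adjusted p 9.35e-13) to Cd72 at -1.68 (adjusted p 1.54e-10) and Clec12a at -1.05 (adjusted p 1.48e-06).

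The broad classes held states in which the same receptors took quite different levels. Within macrophage-like cells, Clec4d was at 332.2 CPM in the Gpnmb/Fabp5 cluster but at 156.9 in the Ms4a7/Acp5 cluster and 119.4 in the cycling one (means over 4 libraries). Cd72 ran the other way, with 524.6 CPM in the Ms4a7/Acp5 cluster and 559.4 in the cycling one against 56.03 in the Gpnmb/Fabp5 cluster. Clec4a2 was also lower in Gpnmb/Fabp5 cells, at 31.99 CPM against 114.9 in the Ms4a7/Acp5 and 162.8 in the cycling cluster. Clec4n was lower in Gpnmb/Fabp5 cells (194.6 CPM) than in Ms4a7/Acp5 cells (440.1).

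Microglia-like and dendritic-cell-like cells split as well. In Ly6c2/Ly6i monocyte-like cells Clec4e was at 769.5 CPM, Clec4n at 380.9 and Cd72 at 135.1. In microglia-like cells Cd72 was at 586.8 CPM in the Cst7/Apoc1 cluster against 157.1 in the homeostatic Siglech/Sparc cluster. Clec4n had 37.29 and 2.92 CPM in these clusters and Clec12a 39.16 and 3.91 CPM. Among dendritic-cell-like clusters Clec10a had its highest mean in the Cd209a/Cd7 cluster, at 57.1, 177.1, 131.5 and 214.2 CPM. It overlapped the Plet1/Ccl17 cluster, at 78.15, 37.48, 10.74 and 28.21 CPM (mean 38.64), which was the higher of the pair in shNC 1. Cd72 was highest among these clusters in Plet1/Ccl17 cells, at a mean of 361.6 CPM.

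**Figure D2:**
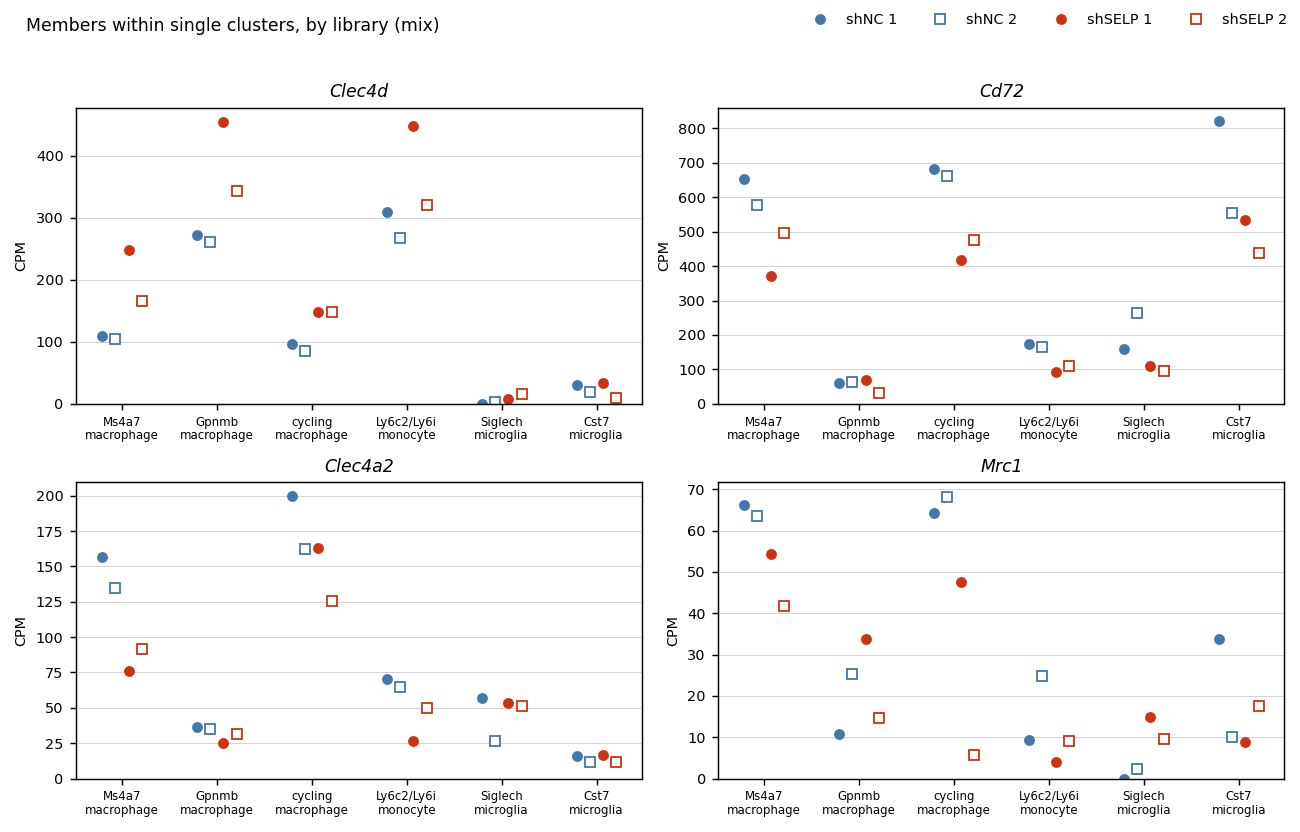
Clec4d, Cd72, Clec4a2 and Mrc1 (y axis, CPM of summed UMIs) in 3 macrophage-like, 1 monocyte-like and 2 microglia-like clusters of the mix (x axis), with a point for each library, blue for shNC and red for shSELP. In the Ms4a7/Acp5 cluster the shSELP libraries hold 247.9 and 165.0 CPM of Clec4d against 109.8 and 104.8 in shNC.

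Does Selp knockdown in the tumor cells go with a different receptor profile in macrophage-like cells? Clec4d rose and Cd72 and Clec4a2 fell, while the partner receptor Clec4e and the other activating receptor Clec4n were not called. The makeup of the class moved at the same time. Ms4a7/Acp5 cells supplied 55.8, 53.9, 37.5 and 28.1% of the class's UMIs, so the values below are followed by values within clusters. In this comparison 3 of 10 members were called (0.462% of all 10603 genes tested, 49 genes), and DESeq2 called 4 (1.22% of all genes tested, 129 genes). At an unadjusted p under 0.05 there were 5, and 1582 of all genes tested. The members' median log2 fold change was -0.15 against -0.01 over all genes tested.

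Clec4d stood at 154.9, 150.9, 342.5 and 306.7 CPM in macrophage-like cells. Both shSELP libraries lay above both shNC libraries. In edgeR's test it rose by 1.14 on the log2 scale (SE 0.10, adjusted p 0.014), a 2.12-fold ratio of group means. It was called in 14 of 15 alternatives, with adjusted p from 1.52e-16 to 0.197. Among these, the fit with unnamed clusters added gave the same counts of genes tested and called as the chosen fit. Fits of single clusters, given below, are not among the 15. Without shSELP 1 the value was 1.09. Clec4e, with 228.4, 191.1, 253.5 and 216.2 CPM, overlapped between groups and was not called (0.22, SE 0.13, adjusted p 0.504). Clec4n, with 466.9, 350.1, 342.5 and 406.7 CPM, overlapped as well (-0.06, SE 0.17, adjusted p 0.904).

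Cd72 stood at 556.0, 454.3, 240.3 and 222.9 CPM, with both shSELP libraries below both shNC libraries. It fell, at a log2 fold change of -1.07 (SE 0.13, adjusted p 0.026), a 2.18-fold ratio of means. It was called in 13 of 15 alternatives (adjusted p 4.44e-16 to 0.171), and the value without shSELP 1 was -1.09. Clec4a2, with 146.8, 115.6, 64.91 and 64.77 CPM and no overlap, fell, at -0.96 (SE 0.15, adjusted p 0.0495, 2.02-fold). Its call was close to the limit and held in 11 of 15 alternatives (adjusted p 4.66e-11 to 0.103). It was lost with the per-cell gate (-0.97, adjusted p 0.0538), at resolution 0.6 (-0.87, adjusted p 0.0818) and after thinning (-0.99, adjusted p 0.103). The call was also lost without shNC 1 (-0.74), and the value without shSELP 1 was -0.93. Of its relatives, Clec4a1 was at 82.8, 57.97, 70.58 and 64.23 CPM and not called (-0.02, SE 0.18, adjusted p 0.987), and Clec4a3 was at 93.81, 86.1, 81.25 and 67.28 CPM, lower in both shSELP libraries but not called (-0.23, SE 0.12, adjusted p 0.439), with a negative value in 15 of 15 alternatives. Clec12a, at 204.5, 197.6, 169.5 and 200.4 CPM, was not called either (-0.05, SE 0.12, adjusted p 0.889).

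Both endocytic receptors were lower in the shSELP libraries without reaching the limit in edgeR. Mrc1 had 60.58, 57.18, 37.67 and 25.8 CPM, with no overlap (-0.87, SE 0.17, adjusted p 0.089). It was called by DESeq2 (adjusted p 0.0127) and without shSELP 1 (-1.10, adjusted p 0.000209), and in 6 of 15 alternatives in all, over a range of adjusted p from 3.09e-08 to 0.29. Clec10a had 5.77, 6.21, 1.82 and 2.06 CPM (-1.52, SE 0.29, adjusted p 0.089) and was called without shSELP 1 (-1.44, adjusted p 0.0357, range 0.000425 to 0.243).

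Within clusters Clec4d was higher in both shSELP libraries in Ms4a7/Acp5 cells (109.8, 104.8, 247.9 and 165.0 CPM), in Gpnmb/Fabp5 cells (271.9, 260.1, 454.4 and 342.3) and in cycling cells (95.99, 84.9, 148.0 and 148.6). The first pair of clusters was fitted by itself and Clec4d was called in neither, with log2 fold changes of 0.94 (adjusted p 0.0646) and 0.61 (adjusted p 0.135). Where cells were drawn so that each library had equal shares of the 3 macrophage clusters with enough cells in every library, with the cycling and Mmp12/Mmp13 clusters left out, 62, 48, 61 and 132 cells a cluster were used. Clec4d was then at 0.59 (SE 0.15, adjusted p 0.197) and lost its call, and the part of fewer cells and fewer clusters in this was not tested apart from that of the shares. From cluster shares alone, with each cluster held at its mean level, the log2 ratio of groups would be 0.51, against 1.09 observed.

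Cd72 was lower in both shSELP libraries in Ms4a7/Acp5 cells (651.2, 577.8, 372.5 and 496.8 CPM) and in cycling cells (682.7, 661.7, 418.8 and 474.5), and overlapped in Gpnmb/Fabp5 cells (59.24, 64.03, 68.85 and 31.99). In fits of their own Ms4a7/Acp5 cells had -0.49 (adjusted p 0.329) and Gpnmb/Fabp5 cells -0.44 (adjusted p 0.747), neither called. In the draw with equal shares of 3 clusters it was at -0.54 (adjusted p 0.171), at resolution 0.6 at -0.77 (adjusted p 0.0818), and both lost the call. Cluster shares alone would give -0.65 against -1.13 observed. Clec4a2 kept its call in that draw (-0.79, adjusted p 0.0494), and shares alone would give -0.45 against -1.02 observed. It was lower without overlap in Ms4a7/Acp5 cells (156.9, 134.7, 76.19 and 91.9 CPM) and in Gpnmb/Fabp5 cells (36.35, 35.35, 25.04 and 31.22 CPM), and overlapped in cycling cells (199.9, 162.3, 163.0 and 125.8 CPM). Mrc1 was lower without overlap in Ms4a7/Acp5 cells (66.27, 63.44, 54.42 and 41.8 CPM) and overlapped in Gpnmb/Fabp5 cells (10.77, 25.34, 33.8 and 14.65 CPM), and for it shares alone would give -0.52 against -0.89 observed.

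The share of macrophage-like cells with at least 1 UMI differed between groups in the same direction as the levels. For Clec4d it was 66.6, 72.2, 88.5 and 91.3%, and 26.7, 27.5, 44.8 and 41.8% once cells were thinned to 2000 UMIs, which left out 3, 1, 2 and 5 cells. For Cd72 it was 86.6, 69.0, 64.8 and 58.6%, and 57.3, 41.2, 31.3 and 24.1% after thinning. T-like cells, with medians of 5638, 5633, 4982 and 7613 UMIs against 13328, 15712.5, 13270 and 19427 in macrophage-like cells, had shares of 1.55, 1.70, 1.92 and 2.93% for Clec4d and 8.85, 10.6, 9.11 and 11.7% for Cd72. After thinning, which left out 33, 19, 13 and 6 of them, these were 0.239, 1.11, 0.495 and 1.06% for Clec4d and 5.01, 4.43, 4.21 and 2.75% for Cd72. Marker lists of other cells were summed in the class as well. The sum of the Nos2/Inhba list (6 of 6 genes detected, Ptgs2 highest) was 2704.3, 2450.7, 3636.7 and 4153.4 CPM, that of the cycling list (8 of 8, Tubb5 highest) 821.3, 784.2, 628.4 and 395.1 CPM, and that of the neutrophil list (10 of 11, Cxcl2 highest, Stfa2l1 at 0) 8021.1, 7162.9, 10498.5 and 10156.9 CPM. The border-macrophage list (6 of 6, Pf4 highest) summed to 343.1, 188.1, 136.4 and 143.8 CPM, and the monocyte list (8 of 8, Ms4a4c highest) to 1019.9, 1510.9, 1467.7 and 1927.9 CPM, overlapping between groups. The part of these lists in the changes of Clec4d, Cd72 and Clec4a2 was not tested.

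In monocyte-like cells, a cell type that can give rise to tissue macrophages, no receptor was called between groups. The count was 0 of 10 members (0.0984% of all 8126 genes tested, 8 genes) in edgeR, with 3 members and 585 of all genes at an unadjusted p under 0.05, and 0 in DESeq2. The members' median was -0.19 against -0.01 over all genes. Clec4d had 360.4, 266.5, 425.8 and 306.1 CPM (0.25, adjusted p 0.817) and Clec4e 1100.7, 819.0, 913.5 and 713.5 CPM (-0.21, adjusted p 0.824), both overlapping. Clec4n stood at 321.7, 328.7, 293.6 and 356.7 CPM, Clec4a1 at 81.49, 81.65, 77.03 and 85.06, Clec4a3 at 95.25, 115.1, 91.56 and 80.66, Clec12a at 205.3, 172.6, 154.1 and 195.8, and Clec10a at 10.05, 7.19, 3.63 and 9.53.

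Cd72 in monocyte-like cells had 130.7, 127.3, 69.04 and 89.46 CPM, with both shSELP libraries below both shNC libraries (-0.64, SE 0.14, adjusted p 0.0959, range 0.00131 to 0.924). It was called without shSELP 2 (-0.86, adjusted p 0.00131), without shNC 2 (-0.68, adjusted p 0.0346) and with the per-cell gate (-0.99, adjusted p 0.00541). Clec4a2 had 66.15, 62.61, 32.7 and 47.66 CPM without overlap (-0.59, SE 0.18, adjusted p 0.308, range 0.0159 to 1.0) and was called without shSELP 2 (-0.93, adjusted p 0.0159). For Mrc1, with 7.41, 22.0, 7.27 and 7.33 CPM (-1.02, SE 0.42, adjusted p 0.587), the value depended on which shNC library was kept. It was 0.00 without shNC 2 (adjusted p 1.0), and -1.52 and called without shNC 1 (adjusted p 0.0259).

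Microglia-like cells were compared to see whether resident cells carry the same differences as macrophage-like ones. Cd72 fell in them too, and no other receptor was called. The fit tested 9 members, since Clec10a had 0, 1.06, 0 and 0 CPM, and called 1 of them (1.8% of all 8353 genes tested, 150 genes). In the same fit 3 members and 1451 of all genes had an unadjusted p under 0.05, and the members' median was -0.11 against 0.01 over all genes. Cd72 stood at 598.2, 491.2, 267.3 and 267.3 CPM, with no overlap between groups. It fell, at -1.08 (SE 0.14, adjusted p 0.0056), a 2.04-fold ratio, and was called in 13 of 13 alternatives (adjusted p 2.12e-11 to 0.0353). Among these, resolution 1.4 and leaving out Scrublet's doublets gave the same counts of genes tested and called as the chosen fit. Fits of single clusters, given below, are not among the 13. Without shSELP 1, whose microglia-like share stood apart, the value was -1.08.

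The 2 microglia-like clusters contributed unequally, since Siglech/Sparc cells numbered 44, 43, 222 and 76 and Cst7/Apoc1 cells 33, 66, 51 and 32. Cst7/Apoc1 cells held 623286, 1478944, 1027228 and 849675 of the class's 937865, 1895225, 2776422 and 1690748 UMIs, a lower share in both shSELP libraries. Mean Cd72 was 586.8 CPM in Cst7/Apoc1 and 157.1 in Siglech/Sparc cells, and the part of these shares in its fall was not tested. Cd72 was at 158.9, 264.2, 110.3 and 95.12 CPM in Siglech/Sparc cells (-1.07, adjusted p 0.0893). In Cst7/Apoc1 cells it was at 819.8, 555.1, 534.4 and 437.8 CPM (-0.53, adjusted p 0.58). Both clusters had the shSELP libraries below the shNC libraries, and neither was called by itself. The sum of the Gpnmb lipid list in microglia-like cells (7 of 7, Spp1 highest) was 7810.3, 5705.4, 1238.3 and 2055.3 CPM, and that of the homeostatic list (5 of 5, Tmem119 highest) 846.6, 719.2, 1578.7 and 1067.6 CPM. The macrophage list summed to 51458.4, 50134.4, 41733.6 and 44474.4 CPM and the monocyte list to 290.0, 307.1, 188.0 and 110.6 CPM. The neutrophil list summed to 1532.2, 1615.1, 1412.2 and 1027.9 CPM. The Gpnmb lipid, macrophage, monocyte, neutrophil, cycling and plasmacytoid dendritic cell lists were lower in both shSELP libraries. The homeostatic, microglia, B cell, plasma cell and oligodendrocyte lists were higher in both. The part of all these lists in the fall of Cd72 was not tested.

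The other receptors in microglia-like cells were not called between groups. Clec12a had 29.86, 31.66, 19.45 and 14.79 CPM without overlap (-0.86, SE 0.24, adjusted p 0.0918) and was called with no filter on low counts (adjusted p 0.043). Clec4a2 had 29.86, 14.77, 39.98 and 31.35 CPM, higher in shSELP without overlap (0.78, SE 0.30, adjusted p 0.2), with values of 0.17 without shNC 2 and 0.93 without shSELP 2, the second called (adjusted p 0.0249). Clec4a3 had 42.65, 35.35, 47.18 and 59.15 CPM (0.41, adjusted p 0.322). Clec4d had 20.26, 15.83, 17.29 and 12.42 CPM (-0.24, adjusted p 0.742), a value that turned to 2.03 with the per-cell gate (adjusted p 0.135) and to 0.83 with unnamed clusters added (adjusted p 0.448), neither called. Clec4e had 9.6, 18.47, 15.49 and 2.96 CPM (-0.59, adjusted p 0.605), with a call without shSELP 1 (-2.37, adjusted p 0.0441). Clec4n stood at 33.05, 10.03, 19.09 and 25.43 CPM, Clec4a1 at 6.4, 8.97, 13.33 and 8.28, and Mrc1 at 22.39, 8.44, 12.61 and 13.6.

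Whether the 2 classes responded differently was tested as an interaction, microglia-like against macrophage-like, over 10212 genes. It was called for 2 of 10 members (1.75% of all genes tested, 179 genes), Clec4a2 and Clec4d. For Clec4a2 the difference was 1.68 (SE 0.26, adjusted p 0.00358), with the shSELP libraries higher in microglia-like and lower in macrophage-like cells, and it held in 3 of 8 alternatives, over adjusted p from 3.32e-08 to 0.189. It was lost without shNC 2 (1.31, adjusted p 0.0872), with the per-cell gate (1.65, adjusted p 0.115), after thinning (1.55, adjusted p 0.189) and with unnamed clusters put in the class of their highest score (1.21, adjusted p 0.0579), and DESeq2 gave it 1.63 with no adjusted p. Within each microglia-like cluster Clec4a2 overlapped between groups, at 57.22, 26.42, 53.74 and 51.13 CPM in Siglech/Sparc cells and 16.04, 11.49, 16.55 and 11.77 CPM in Cst7/Apoc1 cells. For Clec4d it was -1.41 (SE 0.28, adjusted p 0.0151), held in 3 of 8 alternatives (adjusted p 0.00112 to 0.816). Within microglia-like clusters Clec4d was higher in both shSELP libraries in Siglech/Sparc cells (0.0, 2.4, 7.43 and 15.46 CPM), against the direction of the interaction, and overlapped in Cst7/Apoc1 cells (30.48, 19.61, 34.07 and 9.42 CPM). The value of the interaction rests on microglia-like levels of at most 20.26 CPM, turned to 0.88 (adjusted p 0.722) with the per-cell gate and was lost with unnamed clusters added (-0.42, adjusted p 0.816). Cd72 was not called in the interaction (-0.02, SE 0.14, adjusted p 0.978). Without shSELP 1, where 2.82% of all genes were called, Clec4e (-2.60, adjusted p 0.000246), Clec12a (-1.23, adjusted p 0.014) and Clec4a3 (0.88, adjusted p 0.0302) were called as well.

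Dendritic-cell-like cells were compared in the same way, and 6 members passed the filter on low counts. None of the 6 was called in edgeR (0.106% of all 7576 genes tested, 8 genes) or DESeq2, 3 members and 595 of all genes had an unadjusted p under 0.05 in edgeR, and the median was -0.26 against 0.00 over all genes. Clec12a had 139.2, 129.5, 79.35 and 69.04 CPM without overlap (-0.87, SE 0.18, adjusted p 0.168, range 0.00107 to 0.945), and it was called without shNC 1 (-0.79, adjusted p 0.0357), without shNC 2 (-0.95, adjusted p 0.00107) and with the per-cell gate (-0.94, adjusted p 0.0371). It was highest in the Igkc/Ighg2b cluster (233.6, 210.5, 155.8 and 148.8 CPM), and the plasma cell list (6 of 6, Jchain highest) summed to 834.9, 791.0, 108.1 and 125.3 CPM in the class, whose part in the value of Clec12a was not tested. Cd72 had 151.0, 125.6, 113.1 and 85.92 CPM without overlap (-0.49, adjusted p 0.559), and it was called without shNC 2 (-0.65, adjusted p 0.0482) and with the gate (-1.23, adjusted p 0.0153). Clec4n had 140.0, 74.16, 59.51 and 77.73 CPM (-0.62, adjusted p 0.626), a value of -0.06 without shNC 1 and of -1.03 without shNC 2 (adjusted p 0.000252). Clec10a, which was higher in these cells than in macrophage-like ones, had 35.64, 49.44, 30.75 and 50.63 CPM (-0.03, adjusted p 0.991).

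Neutrophil-like cells were too few for a test between groups in the mix. Clec4e stood at 2047.3, 2838.6, 1007.8 and 1943.6 CPM, lower in both shSELP libraries, and Clec4d at 635.4, 1371.5, 606.7 and 797.4 CPM, overlapping between groups. Clec4n had 353.0, 574.1, 195.4 and 1262.5 CPM, Clec12a 423.6, 287.1, 154.3 and 83.06 CPM, and Clec4a2 70.6, 159.5, 195.4 and 66.45 CPM. Cd72 and Clec10a were at 0 in all 4 libraries. The comparison could be fitted without shNC 1 and with the per-cell gate, and 0 of 1065 and 0 of 2150 genes tested were called in these fits.

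The CD11b+ experiment had 1 library a group, so no test was possible and intervals are 95% Poisson intervals that cover counting error only. In macrophage-like cells, 1345 in shNC and 1323 in shSELP, none of the 10 receptors passed a 1.5-fold ratio either way (13.4% of the 8779 genes with at least 50 UMIs did). The members' median ratio of shSELP over shNC was 0.919 against 1.08 over those genes. Cd72 was at 463.0 and 326.1 CPM, a ratio of 0.704 (0.667 to 0.743), and Clec4a2 at 140.0 and 102.9 CPM, a ratio of 0.735 (0.666 to 0.81). Clec4d was at 106.8 and 116.8 CPM, a ratio of 1.09 (0.99 to 1.21), against 2.12 in the mix. Clec4e had 86.44 and 103.2 CPM (1.19, 1.07 to 1.33), but its ratio turned to 0.882 with unnamed clusters added. Clec4n had 377.4 and 316.1 CPM (0.838, 0.791 to 0.887), Clec12a 137.6 and 99.6 CPM (0.724, 0.655 to 0.799) and Clec4a3 67.37 and 81.48 CPM (1.21, 1.07 to 1.37).

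For the remaining 3, as for Clec4d, the counting interval of the ratio held 1. Clec4a1 had 51.57 and 48.07 CPM (0.932, 0.801 to 1.08), Mrc1 53.2 and 60.83 CPM (1.14, 0.994 to 1.32) and Clec10a 7.65 and 6.93 CPM (0.906, 0.601 to 1.36). A cluster of Slfn4/Jun cells that could not be named held 19.2% of the shNC cells and 3.64% of the shSELP cells. Another unnamed cluster went the other way, with 1.06 and 12.09%. All unnamed clusters together held 22.1 and 16.4%, so the named classes cover unlike parts of the 2 libraries. Within clusters, Cd72 had ratios of 0.771 in Sh2d1b1/Tmem176b cells (539.7 and 416.0 CPM) and 0.547 in Gpnmb/Fabp5 cells (127.8 and 69.86 CPM), and it was higher in the shSELP library in the unnamed Slfn4/Jun cells (199.0 and 294.8 CPM, 1.48, 1.1 to 1.97). The ratio of Clec4d was 0.995 in Sh2d1b1/Tmem176b cells (57.79 and 57.48 CPM, 0.783 to 1.26) and 0.807 in Mcm7/Mcm6 cells (68.85 and 55.58 CPM, 0.529 to 1.22). It was higher in the shSELP library in Gpnmb/Fabp5 cells (180.0 and 229.5 CPM, 1.27, 1.09 to 1.5) and in Mmp12/Mmp13 cells (248.5 and 345.2 CPM, 1.39, 1.08 to 1.78), and lower in the unnamed Slfn4/Jun cells (268.8 and 140.1 CPM, 0.521, 0.343 to 0.764).

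In the other CD11b+ classes Cd72 again lay below 1, with 146.5 and 117.9 CPM in monocyte-like cells (0.805, 0.66 to 0.982) and 546.8 and 480.6 CPM in microglia-like cells (0.879, 0.785 to 0.984). Clec4a2 had 115.2 and 52.26 CPM in monocyte-like cells (0.454, 0.347 to 0.591) and 29.39 and 15.84 CPM in microglia-like cells (0.539, 0.29 to 0.968), the second against its direction in the mix. Clec4d was at 255.9 and 254.3 CPM in monocyte-like cells (0.994) and at 27.07 and 13.2 CPM in microglia-like cells (0.488, 0.247 to 0.916). Clec4e in monocyte-like cells had 618.5 and 523.7 CPM (0.847, 0.771 to 0.93). Mrc1 in microglia-like cells rested on 27 and 4 UMIs (0.169, 0.0429 to 0.484).

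The receptors' signalling partners were counted next to all genes of the same fits. A list of 27 partners, from the adaptors Fcer1g and Tyrobp to Syk, Card9 and the phosphatase Ptpn6, had 0 called of 27 in macrophage-like cells in edgeR and in DESeq2, with 4 and 2 at an unadjusted p under 0.05, where 0.462% of all genes were called and 1582 of 10603 had an unadjusted p under 0.05 in edgeR. The partners' counts lie near those shares. The count was 0 of 26 in monocyte-like, 0 of 25 in microglia-like and 0 of 26 in dendritic-cell-like cells in both tools. At an unadjusted p under 0.05 there were 2, 4 and 2 in edgeR, next to 585 of 8126, 1451 of 8353 and 595 of 7576 genes tested. In macrophage-like cells, where Clec4d rose, Fcer1g was at -0.04, Syk at 0.01 and Card9 at -0.06, and where Cd72 fell, Ptpn6 was at 0.03. The median over the list in macrophage-like cells was 0.08 against -0.01 over all genes.

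A second list held 40 other C-type lectin receptors, of which 34 were in the table of the mix. In edgeR 0 of 18 tested were called in macrophage-like, 0 of 10 in monocyte-like, 0 of 6 in microglia-like and 0 of 14 in dendritic-cell-like cells. At an unadjusted p under 0.05 there were 5, 1, 2 and 4, next to 1582 of 10603, 585 of 8126, 1451 of 8353 and 595 of 7576 genes tested. DESeq2 called 1 in macrophage-like cells, where it called 1.22% of all genes, and none in the other classes. Between classes, 10 of 15 differed in microglia-like against macrophage-like cells, 1 of them higher, next to 10 of 26 partners, 5 of them higher, where 42.9% of all genes were called. Fcer1g, through which Clec4d, Clec4e and Clec4n signal, was lower in dendritic-cell-like than in macrophage-like cells, at -2.59 (adjusted p 9.53e-14). Syk was lower in microglia-like than in macrophage-like cells, at -0.91 (adjusted p 1.48e-07). In the interaction, where edgeR called 1.75% of all genes and DESeq2 0.92%, 0 of 27 partners were called (4 at an unadjusted p under 0.05, 0 in DESeq2) and 1 of 15 receptors, Klrb1b (2.41, SE 0.51, adjusted p 0.0227).

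The levels over clusters show which genes ran with each receptor. Over 53 sums of a myeloid cluster in a library of the mix, Clec4d and Clec4e had a Pearson correlation of log2 CPM of 0.937, the highest of any pair of members. Among 2631 other genes Thbs1 was closest to both, at 0.946 for Clec4d and 0.901 for Clec4e, followed by Mgst1 (0.918) for Clec4d and F10 (0.901) for Clec4e. Clec4n lay nearest Trem1 (0.858) and Il1b (0.839). Clec4a1 ran with Klra2 (0.908), Clec4a2 with C5ar1 (0.803) and Clec4a3 with Lrrc25 (0.909) and Lst1 (0.888). Clec12a ran with Gsn (0.817), Cd72 with Slamf9 (0.911), Mrc1 with Pf4 (0.82) and Clec10a with Rraga (0.729). Cd72 was nearly unrelated to Clec4d (-0.045), and the lowest pair was Clec4a3 with Clec10a (-0.243). The points share libraries, depth and lineage, so these values are descriptions.

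The 6 Clec4 genes lie together on chromosome 6, in 368.0 kb from chr6:122921848-123289870 of GRCm38 (GENCODE M21). Clec4d (chr6:123262111-123275265, plus strand) and Clec4e (chr6:123281789-123289870, minus strand) are neighbours, and Clec4n (chr6:123229843-123247021, plus strand) lies before them. Clec4a1 (chr6:122921848-122934619), Clec4a3 (chr6:122952515-122969875) and Clec4a2 (chr6:123106428-123143999) are on the plus strand too. Clec12a is further along chromosome 6 (chr6:129342691-129365303), while Cd72 (chr4:43446462-43454628), Mrc1 (chr2:14229392-14332057) and Clec10a (chr11:70156197-70170834) are elsewhere. Of these neighbours in macrophage-like cells, Clec4d was called higher and Clec4a2 lower in shSELP, and Clec4e, Clec4n, Clec4a1 and Clec4a3 were not called. Whether the response differs between the genes was not tested.

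**Figure D3:**
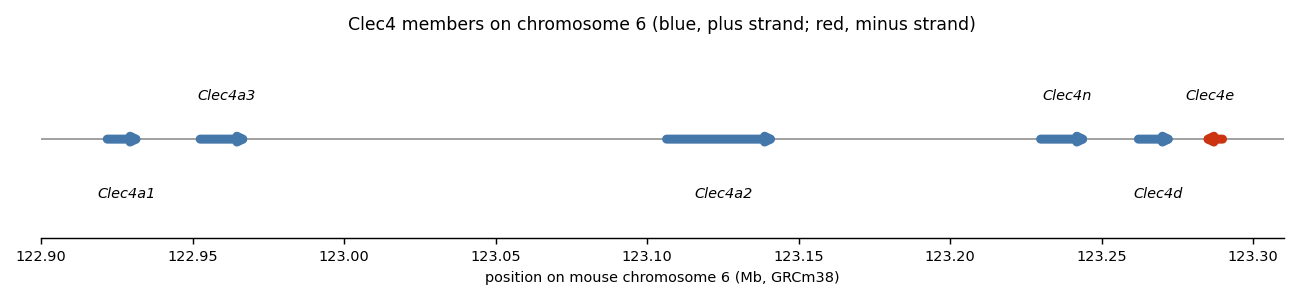
Map of the 6 Clec4 genes on mouse chromosome 6 (x axis, position in Mb, GRCm38), each an arrow drawn to scale from start to end, blue on the plus and red on the minus strand. All 6 lie within 368.0 kb, and Clec4e alone of them is on the minus strand.

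Start regions from 250 bases before to 50 after the gene's start were read from RefSeq promoters of GRCm38.p6, which held 8 of the 10 members and none for Clec4n and Clec10a. They are printed for the 3 genes called in macrophage-like cells and for Clec4e, the uncalled neighbour of Clec4d, 5′ to 3′ on the gene's strand, with capitals for the motif matches. On both strands the search covered GAGGAAGT (PU.1), TTGCNNAA (C/EBP), TGANTCA (AP-1), TCACGTGA (MITF/TFE) and NACGTG (HIF), which 3.2, 10.8, 7.81, 0.974 and 19.6% of 32851 promoters hold. Clec4d (chr6:123261857-123262156, plus) held none. Clec4e (chr6:123289822-123290121, minus) held a C/EBP match, TTGTGCAA, which fits the motif on the other strand, and a HIF match, CACGTT, which is AACGTG on the other strand. Cd72 (chr4:43454577-43454876, minus) held a PU.1 match on the other strand, ACTTCCTC, and Clec4a2 (chr6:123122440-123122739, plus) an AP-1 match, TGACTCA, where the RefSeq start lies inside the gene's GENCODE span. No 2 matches overlapped, and a match describes letters alone.
Clec4d: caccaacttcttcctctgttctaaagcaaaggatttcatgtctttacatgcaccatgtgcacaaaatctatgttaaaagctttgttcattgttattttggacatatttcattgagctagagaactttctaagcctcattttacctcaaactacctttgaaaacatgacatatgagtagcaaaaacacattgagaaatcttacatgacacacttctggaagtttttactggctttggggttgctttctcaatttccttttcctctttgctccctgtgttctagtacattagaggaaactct
Clec4e: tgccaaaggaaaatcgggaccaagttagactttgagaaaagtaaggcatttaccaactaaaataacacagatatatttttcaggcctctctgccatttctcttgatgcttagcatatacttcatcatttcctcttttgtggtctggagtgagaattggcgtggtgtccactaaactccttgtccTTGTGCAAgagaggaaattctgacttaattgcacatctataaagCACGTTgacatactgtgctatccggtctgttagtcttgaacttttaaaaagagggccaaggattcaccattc
Cd72: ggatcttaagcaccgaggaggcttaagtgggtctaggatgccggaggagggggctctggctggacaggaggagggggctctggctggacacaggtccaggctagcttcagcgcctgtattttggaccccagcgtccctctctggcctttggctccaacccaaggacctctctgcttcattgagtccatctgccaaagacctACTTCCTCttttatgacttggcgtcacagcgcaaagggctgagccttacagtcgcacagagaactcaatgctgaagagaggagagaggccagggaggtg
Clec4a2: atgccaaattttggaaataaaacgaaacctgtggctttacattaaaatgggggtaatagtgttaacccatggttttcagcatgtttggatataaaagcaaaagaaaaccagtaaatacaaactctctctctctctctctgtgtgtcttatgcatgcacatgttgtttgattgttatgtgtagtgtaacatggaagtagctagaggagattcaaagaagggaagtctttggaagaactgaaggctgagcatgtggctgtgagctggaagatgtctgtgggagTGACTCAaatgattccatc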

How the data were processed

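The authors deposited UMI counts per gene and cell, made with Cell Ranger 1.3 on mm10, per the labels. Cells under 500 genes or over 10% mitochondrial counts were dropped. Seurat 5.3.0 (R 4.3.3) clustered cells on 2000 variable genes without C-type lectins, with 12 components in the mix and 8 in the CD11b+ cells at resolution 0.8, then myeloid cells with 20 components at resolution 1. A cluster took the class with the highest mean marker log2 score at a pseudocount of 10 CPM. The rules that left a cluster unnamed, or moved one with a microglia score above 1.5 to the microglia-like class, were set after the clusters were seen. Counts were summed per library and class and tested with edgeR 4.0.16 (quasi-likelihood, TMM, Benjamini-Hochberg, called under 0.05), with DESeq2 1.42.0 as an alternative. Comparisons of groups were run only where each library used held at least 10 cells of the class. Comparisons between classes had no such minimum, so neutrophil-like cells entered them with 7 cells in shNC 1. The SE of an edgeR value was computed as the absolute log2 fold change divided by the square root of the test's F statistic. The fits were tested on simulated data. Scrublet in scanpy 1.11.5 called doublets, with an expected rate of 0.05.

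Other alternatives were fits with no low-count filter, fits that leave out a library, library number as a block, a per-cell gate by markers, resolutions 0.6 and 1.4, cells thinned to 2000 UMIs, and, for macrophage-like cells, cycling clusters left out or equal cluster shares. Unnamed clusters added by score and fits of single clusters were chosen after seeing the data. Pairing by library number comes from the labels, which give it no meaning. All 10 members are named, with every gene called by edgeR between groups in macrophage-like or microglia-like cells from 2 other lists (27 signalling partners, 40 other C-type lectin receptors) and, for likeness, from the 3 genes closest to each member. The other receptor called by DESeq2 alone in macrophage-like cells is not named. The members and lists were chosen with earlier results of these data known. Figures were drawn with matplotlib 3.10.9 in Python 3.11.15.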

Additional observations from a re-analysis of the deposited data

Results flagged for a closer look

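The response to shSELP differed between microglia-like and macrophage-like cells for 2 receptors in edgeR's interaction test. For Clec4a2 the difference was 1.68 (adjusted p 0.00358), with the shSELP libraries higher in microglia-like cells and lower in macrophage-like cells. It was called in 3 of 8 alternatives, Clec4a2 overlapped between groups within each microglia-like cluster, and in CD11b+ microglia-like cells the ratio of shSELP over shNC was 0.539. For Clec4d the difference was -1.41 (adjusted p 0.0151), called in 3 of 8 alternatives, and it rests on low microglia-like levels, which were higher in both shSELP libraries within Siglech/Sparc cells. How reads divide between Clec4a2 and its relatives Clec4a1 and Clec4a3 was not tested.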

How the results depend on the processing

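Each group of the mix has 2 libraries from pooled brains, and no library came from a brain without tumor. The shares of the macrophage clusters and of the microglia-like clusters move with the groups. Cluster names were rebuilt from markers and differ from the study's. Scrublet called 76 of 8726 cells of the mix and 1 of 5535 CD11b+ cells, where it did not work. Cells with their 2 best gate scores within 0.1 numbered 617 in the mix and 1345 among CD11b+ cells.

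The number of members called between groups moved as follows, with the percent of all genes tested that were called in the same fit in brackets, and the cause was not tested. In macrophage-like cells it was 3 (0.462%), and 5 with no filter on low counts (4.9%), 2 to 5 with a library left out (0.573 to 4.46%), 1 at resolution 0.6 (0.156%), 1 in the draw with equal shares of 3 clusters (0.214%, the call kept was Clec4a2), 0 in the Ms4a7/Acp5 cluster (0.0983%) and 0 in the Gpnmb/Fabp5 cluster (0.317%). In monocyte-like cells it was 0 (0.0984%), and 1 with no filter (0.581%), 0 to 2 with a library left out (0.352 to 1.0%) and 1 with the per-cell gate (0.445%). In microglia-like cells it was 1 (1.8%), and 2 with no filter (3.44%), 1 to 2 with a library left out (0.296 to 6.02%), 0 in the Siglech/Sparc cluster (0.0513%) and 0 in the Cst7/Apoc1 cluster (0.0902%). In dendritic-cell-like cells it was 0 (0.106%), and 1 with no filter (0.856%), 0 to 3 with a library left out (0.295 to 4.05%) and 3 with the gate (0.339%). In the interaction it was 2 (1.75%), and 1 in DESeq2 (0.92%), 0 to 5 with a library left out (0.34 to 2.82%), 0 with the gate (0.0576%), 0 after thinning (0.992%) and 0 with unnamed clusters added (0.397%). In CD11b+ macrophage-like cells 0 of 10 passed 1.5-fold (13.4% of genes with at least 50 UMIs), and 1 of 10 with TMM scaling (11.5%). With the gate 3 passed, 2 of them among the 9 members with at least 50 UMIs (15.6%).

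With library number as a block, the fit called 4 members in macrophage-like, 1 in monocyte-like, 2 in microglia-like and 1 in dendritic-cell-like cells, where it called 0.792, 0.431, 5.33 and 1.48% of all genes tested. The deviations of same-numbered libraries from their group means had correlations over genes of 0.0425, 0.0145, 0.0259 and 0.0437 in these classes. Whether same-numbered libraries share more than a number was not tested.

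With the gate 2 values turned direction where the chosen fit or the gate called them: Cd72 in microglia-like against macrophage-like cells was -0.49 (adjusted p 0.00277), and the interaction of Clec4d was 0.88 (adjusted p 0.722). The cause was not tested. Values called in neither fit also turned, among them Clec4d in microglia-like cells at 2.03 with the gate. In neutrophil-like cells the comparison of groups was not run in the chosen fit, DESeq2, with no filter, with the block, without shNC 2, shSELP 1 or shSELP 2, at other resolutions, after thinning, without Scrublet's doublets or with unnamed clusters added, since shNC 1 had 7 cells.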

Other observations

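The border-macrophage-like cluster, with 14, 14, 47 and 17 cells in shNC 1, shNC 2, shSELP 1 and shSELP 2, was compared in no test. Mrc1 was at 417.8, 350.0, 1018.9 and 929.3 CPM and Clec10a at 44.76, 63.63, 159.6 and 230.6 CPM, both higher in each shSELP library. Clec4a1 (104.4, 47.72, 184.1 and 314.4 CPM), Clec4a2 (89.52, 111.3, 171.9 and 265.5 CPM), Clec4n (89.52, 111.3, 225.1 and 167.7 CPM) and Clec12a (208.9, 206.8, 221.0 and 244.6 CPM) did not overlap between groups either. Of the 3353 genes with at least 20 UMIs in the cluster, 40.5% did not overlap, 23.6% of all with shSELP higher. The groups overlapped for Cd72 (253.6, 143.2, 212.8 and 524.1 CPM), Clec4a3 (164.1, 127.3, 143.2 and 153.7 CPM), Clec4d (74.6, 79.53, 90.02 and 55.9 CPM) and Clec4e (268.6, 79.53, 118.7 and 27.95 CPM). The median cell of the cluster held 4124.5, 4281.5, 4454.0 and 8828.0 UMIs, and the part of depth in these values was not tested.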
